A study of Mus musculus with 36 samples.

Results

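RNA-seq of epididymal white adipose tissue (eWAT) was used to compare ligatured wild-type (WT) mice fed a 60% high-fat diet (HFD) with ligatured WT mice fed a normal diet (ND). Of the 36 eWAT libraries in the series, 6 belong to this comparison, 3 for each diet, and they were chosen by the labels alone. All mice were male C57BL/6 mice. They were raised on an ND and divided into diet groups at 6 weeks of age, and each diet lasted 10 weeks from then. After 8 of these weeks, at 14 weeks of age, a silk ligature was placed on the left and right upper second molars to induce periodontitis (LIP). The eWAT was collected 2 weeks later, at 16 weeks of age, after perfusion with PBS and removal of the lymph nodes. The ND and 60% HFD mice thus shared genotype, age and ligature and differed in diet. Further groups of 3 mice are used beside them. These are ligatured WT mice on a 40% HFD, CCL19-KI mice with ligature on an ND or a 60% HFD, and WT mice without ligature on an ND or a 60% HFD. In the CCL19-KI line, *Ccl19* was inserted at the *Adipoq* locus so that adipocytes overexpress it. These mice are homozygous and were bred separately from the WT mice. The mice called unligatured here are those whose labels name a diet but no periodontitis, and the labels were followed although the series' design text describes ligature for the sequenced mice without naming unligatured groups.

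Visceral fat takes up dietary fat by enlarging its adipocytes, which then secrete more leptin and express a known set of genes of fat expansion. Macrophages enter the tissue and surround dying adipocytes, and those that take up the released lipid, called lipid-associated macrophages, express genes for lipid binding, matrix breakdown and lysosomes. Lysosomes digest this lipid with acid hydrolases, in a lumen acidified by a proton pump, the V-ATPase. Sterol synthesis is set by SREBP-2, a transcription factor that is held in the endoplasmic reticulum by Insig proteins when sterols are plentiful.

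The 6 libraries held 11962228 to 20258438 reads, with 15.4 to 20.8% of them in the 10 genes with most reads. Levels are given as normalized CPM, reads scaled to a common library size. The value of 1 read was 0.0507 to 0.0803 normalized CPM, so a value of 0 allows a level of up to 0.152 to 0.241 normalized CPM, which is 3 reads and covers counting error only. The reads of each pair of mice on the same diet differed far beyond sampling noise (chi-square per degree of freedom 23.7 to 74.1), so each library was counted as 1 sample. ND replicate 3 stood apart from the other 2 ND mice along the second principal component, which held 24.2% of the variance, and the first component, with 57.0%, separated the diets. Adipocyte markers were at similar levels in both groups, with a mean log2 level of 9.82, 9.58 and 9.69 in the 3 ND mice and 9.91, 9.49 and 9.33 in the 3 60% HFD mice. Since tissue RNA was sequenced in bulk, more cells of a type and more RNA per cell cannot be told apart in any of the values below.

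Transcripts of liver genes were abundant in all 6 libraries and moved with the diet. The mean log2 level of 18 hepatocyte markers was 8.18, 8.33 and 5.54 in ND mice and 8.97, 8.65 and 10.1 in 60% HFD mice. Their summed level was 16011, 15964 and 4623 and 20293, 15006 and 43762 normalized CPM. The summed levels of the diets overlap, and *Cyp2e1*, which adipocytes also express, was 7191, 5744 and 3315 under an ND and 2352, 1505 and 3317 under a 60% HFD. *Alb* (albumin), the most abundant of the other markers, was 4731, 5423 and 718 normalized CPM under an ND and 9675, 7204 and 23618 under a 60% HFD. Of the 18 markers, 16 had higher values in every 60% HFD mouse than in every ND mouse, with a median log2 fold change of 2.29, but 0 passed the test. Over all genes tested, the groups did not overlap for 36.9%, counting either direction. Kidney tubule markers reached higher levels in 2 of the 3 60% HFD mice than in any ND mouse, with a mean log2 level of 0.0314, 1.17 and 0.0919 under an ND and 1.97, 3.44 and 0.825 under a 60% HFD. Of 7 tested, 0 passed. *Kap*, the androgen-regulated kidney protein, was listed at 0, 12.1 and 0 and 42.5, 131 and 5.75 normalized CPM. *Slc34a1*, a phosphate transporter of the proximal tubule, was at 0, 3.14 and 0 and 17.8, 64.3 and 3.28. Mesothelial markers lay the other way, with a median log2 fold change of -0.89, but 0 of 11 passed. Of these, 8 were lower in every 60% HFD mouse, beside the 36.9% of all genes tested without overlap. *Upk3b*, a uroplakin of the mesothelium, was 575, 536 and 522 against 260.0, 303 and 230.1, and the mucin *Muc16* was 416, 563 and 388 against 192, 249 and 284. The protamines *Prm1* and *Prm2*, made in sperm precursors, were listed at 0 in ND replicates 1 and 2 and reached 13.1 and 14.3 in ND replicate 3 and 4.66 and 5.06 in 60% HFD replicate 2. The epididymal secretory genes *Crisp1* and *Adam7* reached 33.4 and 6.10 normalized CPM in 60% HFD replicate 2 and were below 2 in the other 5 mice. The part of these markers in the results below was not tested beyond a fit with the hepatocyte level of each mouse as a covariate. In that fit, 1290 genes passed the test of the 60% HFD against the ND, in place of 1214 without the covariate. Among the genes followed singly in the alternative settings, *Spp1*, *Ctsk*, *Mertk*, *Il7r*, *Mgll*, *Gpd1*, *Mmp9*, *Lamb1*, *Aurka* and *Ube2c* no longer passed. Not all genes named below were followed singly, and some of the others also lost the call. The fit left 4 of the fat expansion genes described below past the threshold (4 without the covariate), 8 of the lipid-associated macrophage genes (11), 6 of the lysosomal genes (8) and 5 of the V-ATPase subunits (5).

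**Figure D1:**
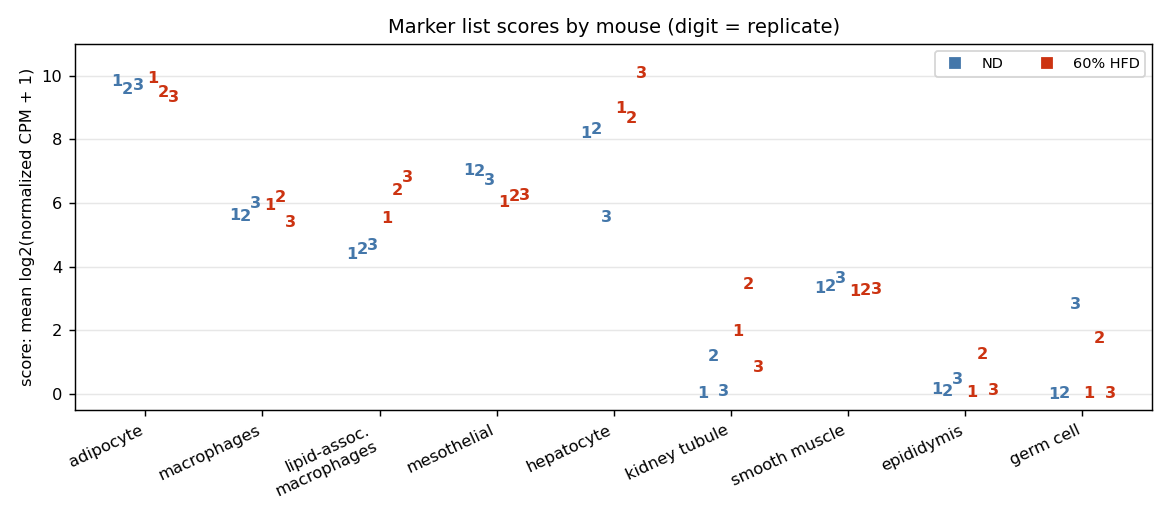
Mean log2(normalized CPM + 1) of the members of 9 marker lists (y axis) in each ligatured WT mouse; blue digits are the ND replicates 1 to 3 and red digits the 60% HFD replicates 1 to 3. The adipocyte level was similar in all 6 mice, the lipid-associated macrophage and hepatocyte levels were higher in all 60% HFD mice, the mesothelial level was lower in all of them, and ND replicate 3 had the lowest hepatocyte level (5.54).

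The 60% HFD changed the expression of 1214 of the 16653 genes tested (limma, Benjamini-Hochberg adjusted p below 0.05, in a fit of the 18 ligatured mice on log2(normalized CPM + 1)). Of these, 645 genes (3.87% of those tested) were higher and 569 (3.42%) were lower in mice fed a 60% HFD. By the criteria of the study for differentially expressed genes (DEGs; unadjusted p ≤ 0.05 with a ratio ≥ 1.5 or ≤ 0.67), 2433 genes passed (14.6%), 1431 higher and 1002 lower. The values of the 2 groups did not overlap for 6152 genes (36.9%), while an exact two-sided permutation test of 3 mice against 3 cannot give a p below 0.1 for a single gene. With edgeR's quasi-likelihood test, run on recovered reads of the same 18 mice, 1179 genes passed, of which 1101 were among those called with limma. In a limma fit of only the 6 mice compared, 1454 genes passed, of which 788 were among the 1214. Single mice decided how many genes passed. There were 137 without ND replicate 1, 325 without ND replicate 2 and 1770 without ND replicate 3. There were 494, 321 and 534 without 60% HFD replicate 1, 2 or 3.

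Most of the genes with the largest rises were at a few normalized CPM or less under an ND. *Slc5a7*, the high-affinity choline transporter of cholinergic neurons, was 0.138, 0.253 and 0.0774 normalized CPM under an ND and 46.7, 70.3 and 65.3 under a 60% HFD (log2 fold change 5.72, SE 0.56, adjusted p = 0.000224), a ratio of reads of 355 (95% counting interval 179.7 to 822). *Tph2*, the tryptophan hydroxylase that starts serotonin synthesis in neurons, was 0.138, 0 and 0.851 normalized CPM under an ND and 16.1, 71.9 and 58.5 under a 60% HFD (log2 fold change 5.03, SE 0.58, adjusted p = 0.000595), a ratio of reads of 172 (95% counting interval 100.2 to 323). For both, all 60% HFD mice lay far above all ND mice. These ratios, whose intervals cover counting error only, exceed what the log2 fold changes imply because 1 is added to each value. *Sfrp5*, a secreted Wnt-binding protein of adipocytes, was 3.45, 17.2 and 8.20 normalized CPM under an ND and 277, 232 and 164 under a 60% HFD (log2 fold change 4.60, SE 0.44, adjusted p = 0.000224). *Mest*, an imprinted gene that follows adipocyte size, was 28.1, 51.3 and 38.8 normalized CPM under an ND and 683, 648 and 534 under a 60% HFD (log2 fold change 3.98, SE 0.51, adjusted p = 0.00101). Both rose to levels that varied little among the 60% HFD mice.

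*Mmp12*, the macrophage elastase, was 0.483, 4.91 and 3.95 normalized CPM under an ND and 38.7, 120.0 and 310.4 under a 60% HFD (log2 fold change 5.02, SE 1.06, adjusted p = 0.0145). *Atp6v0d2*, a V-ATPase subunit of macrophages and osteoclasts, was 1.31, 1.62 and 1.70 normalized CPM under an ND and 13.9, 77.6 and 120.3 under a 60% HFD (log2 fold change 4.36, SE 0.92, adjusted p = 0.0145). In both, replicate 1 was the lowest and replicate 3 the highest of the 60% HFD mice, and all 3 were above the ND mice. *Ubd*, which encodes the ubiquitin-like protein FAT10, was 2.90, 1.32 and 0.774 normalized CPM under an ND and 26.2, 90.5 and 50.9 under a 60% HFD (log2 fold change 4.33, adjusted p = 0.000818). *Fgf13*, an intracellular member of the fibroblast growth factor family, was 0.896, 2.13 and 5.73 normalized CPM under an ND and 81.0, 58.9 and 59.5 under a 60% HFD (log2 fold change 4.29, adjusted p = 0.000232). The uncharacterized lincRNA *1700047G03Rik* was 0.483, 0.507 and 4.33 normalized CPM under an ND and 37.7, 34.0 and 38.1 under a 60% HFD (log2 fold change 4.04, adjusted p = 0.000595). *Onecut1*, a transcription factor of the liver and pancreas, was 1.31, 1.87 and 0 normalized CPM under an ND and 22.8, 54.7 and 17.1 under a 60% HFD (log2 fold change 3.94, SE 1.10, adjusted p = 0.0443). It did not pass in 11 of 19 alternative settings, among them the edgeR quasi-likelihood test and each of the 6 fits without 1 mouse, and it was listed at 0 in all 6 libraries of the series whose mean log2 hepatocyte level was below 2.

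**Figure D2:**
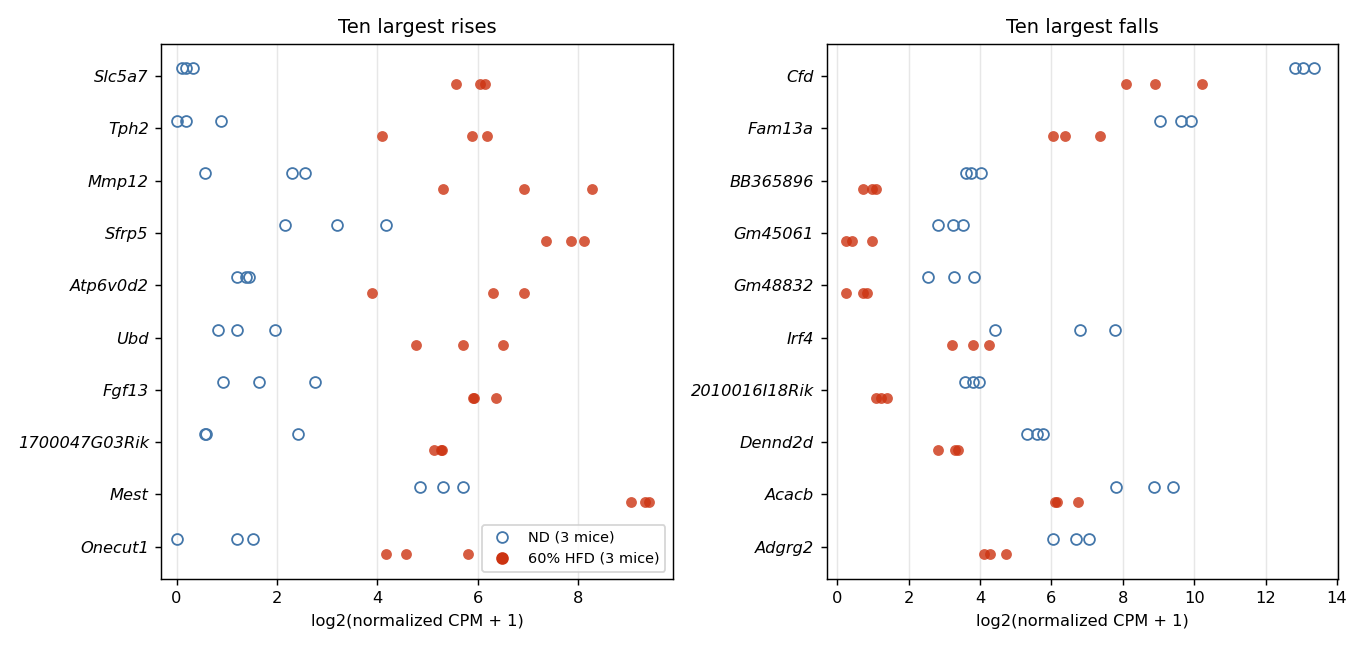
Log2(normalized CPM + 1) (x axis) of the 10 genes with the largest rises (left) and the 10 with the largest falls (right) under a 60% HFD in ligatured WT mice; each point is 1 mouse, open for ND and filled for 60% HFD (3 mice each). The groups do not overlap for any of the 20 genes, by the way these were chosen.

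The largest fall was in *Cfd*, which encodes the adipokine adipsin (complement factor D). It was 10552, 8444 and 7249.6 normalized CPM under an ND and 1182, 473 and 272 under a 60% HFD (log2 fold change -4.01, SE 0.61, adjusted p = 0.00325), a ratio of reads of 0.0742. *Fam13a*, a gene of adipocytes tied to fat distribution and insulin sensitivity (chromosome 6 of GRCm38, 58932090 to 59024549, minus strand), was 952, 798 and 523 normalized CPM under an ND and 164, 82.0 and 65.3 under a 60% HFD (log2 fold change -2.93, SE 0.35, adjusted p = 0.000595). *BB365896* (chromosome 6, 58965655 to 59002083, plus strand) fell by 2.88 and *Gm45061* (chromosome 6, 58973197 to 58975291, plus strand) fell by 2.64 on the log2 scale. Both lie within *Fam13a* on the opposite strand. Likewise, *2010016I18Rik* (chromosome 3, 106481982 to 106485913, minus strand), which fell by 2.54, overlaps *Dennd2d* (chromosome 3, 106482405 to 106503030, plus strand), which fell by 2.40. The libraries were directional, but whether strand was used in counting is not stated, so the reads of these pairs may not be independent. *Dennd2d* was 53.1, 47.7 and 39.1 normalized CPM under an ND and 9.39, 6.02 and 8.90 under a 60% HFD (log2 fold change -2.40, adjusted p = 0.000224).

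*Acacb*, the acetyl-CoA carboxylase at the mitochondrial membrane that restrains fatty acid oxidation, was 674, 471 and 224 normalized CPM under an ND and 106, 70.7 and 67.2 under a 60% HFD (log2 fold change -2.37, SE 0.41, adjusted p = 0.00618). *Irf4*, a transcription factor of immune cells that is also induced in fasted adipocytes, was 221, 110.2 and 20.5 normalized CPM under an ND and 17.9, 12.9 and 8.21 under a 60% HFD (log2 fold change -2.59, SE 0.61, adjusted p = 0.0241). Its level varied widely among the ND mice, of which replicate 3 was just above 60% HFD replicate 1. *Adgrg2*, an adhesion G protein-coupled receptor abundant in the epididymis, was 131, 103 and 64.4 normalized CPM under an ND and 25.3, 16.2 and 18.5 under a 60% HFD (log2 fold change -2.22, adjusted p = 0.00341), and the unnamed gene *Gm48832* was 8.62, 4.81 and 13.3 normalized CPM under an ND and 0.777, 0.642 and 0.189 under a 60% HFD (log2 fold change -2.62, adjusted p = 0.00481). Among the 20 genes of the largest changes, *Slc5a7*, *Sfrp5*, *Fgf13*, *1700047G03Rik*, *Mest*, *Cfd*, *Fam13a*, *BB365896*, *Gm45061*, *Gm48832*, *2010016I18Rik*, *Dennd2d* and *Acacb* kept an adjusted p below 0.05 in each alternative setting run for them (19, or 18 for *BB365896*, *Gm45061* and *Gm48832*).

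The gene lists were written with earlier results of these data known, and some share members, such as *Atp6v0d2*, *Lipa* and *Ctsk*. Over all genes tested, 3.87% were higher and 3.42% lower, which is the background for each list count below. The genes of fat expansion rose, with 4 of 6 tested higher, 0 lower and a median log2 fold change of 1.99 against 0.00 over all genes tested. Besides *Mest* and *Sfrp5*, these were *Lep*, the satiety hormone leptin, at 247, 411 and 523 normalized CPM under an ND and 1590.1, 1477 and 1494 under a 60% HFD (log2 fold change 2.01, SE 0.46, adjusted p = 0.0207), and *Npr3*. The latter, the clearance receptor for natriuretic peptides, was at 143, 232 and 756 normalized CPM under an ND and 1416, 1034 and 1031 under a 60% HFD (log2 fold change 1.97, SE 0.51, adjusted p = 0.0355). When any one of the 6 mice other than ND replicate 3 was left out, *Mest* and *Sfrp5* passed and *Lep* and *Npr3* did not. *Lep* varied little among the 60% HFD mice, whereas the *Npr3* level of ND replicate 3 was nearer to the 60% HFD mice than to the other ND mice. Of the 15 adipokines tested, 2 were higher (*Lep* and *Angptl4*, an inhibitor of lipoprotein lipase) and 1 was lower (*Cfd*). *Angptl4* was 266, 266 and 271 normalized CPM under an ND and 545, 444 and 351 under a 60% HFD (log2 fold change 0.71, adjusted p = 0.0234). *Adipoq* (adiponectin) was 3230.4, 3021 and 2782 normalized CPM under an ND and 3059, 2291 and 1435 under a 60% HFD, groups that overlap (log2 fold change -0.48, adjusted p = 0.427).

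Among 15 adipocyte transcription factors, 2 were lower and 0 higher, beside 3.42% lower and 3.87% higher over all genes tested. *Pparg*, the master regulator of the adipocyte, was 294, 210.4 and 136 normalized CPM under an ND and 109.6, 74.4 and 91.0 under a 60% HFD (log2 fold change -1.16, SE 0.32, adjusted p = 0.0414). *Cebpd*, an early factor of adipogenesis that glucocorticoids induce, was 99.98, 118 and 87.2 normalized CPM under an ND and 38.5, 47.5 and 40.5 under a 60% HFD (log2 fold change -1.24, SE 0.19, adjusted p = 0.00286). *Pparg* and *Gpd1* were also the only 2 of 15 adipocyte markers to pass, in opposite directions.

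Genes of lipid-associated macrophages rose: 11 of 19 tested were higher and 0 lower, with a median log2 fold change of 1.69. Apart from *Mmp12* and *Atp6v0d2*, *Itgax*, the integrin CD11c, was 0.827, 2.94 and 5.18 normalized CPM under an ND and 12.4, 30.9 and 44.2 under a 60% HFD (log2 fold change 2.92, SE 0.62, adjusted p = 0.0151). *Spp1*, which encodes osteopontin, was 0.690, 0.709 and 0.310 normalized CPM under an ND and 3.11, 14.5 and 46.7 under a 60% HFD (log2 fold change 3.22, SE 0.93, adjusted p = 0.0486). Every 60% HFD mouse exceeded every ND mouse for both, but *Spp1* spanned 3.11 to 46.7 among the 60% HFD mice. Its adjusted p was above 0.05 in 11 of 19 alternative settings (up to 0.166). *Gpnmb*, a glycoprotein of lipid-laden macrophages, was 28.9, 28.0 and 33.3 normalized CPM under an ND and 58.2, 210.3 and 474 under a 60% HFD and did not pass (log2 fold change 2.55, SE 0.88, adjusted p = 0.0879). *Fabp5*, a fatty acid-binding protein of macrophages and adipocytes, was 37.0, 33.8 and 42.9 normalized CPM under an ND and 133, 129.6 and 126 under a 60% HFD (log2 fold change 1.75, SE 0.20, adjusted p = 0.000595) and differed from the preceding genes in its narrow range within each diet.

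*Lgals3* (galectin-3), *Lipa* (lysosomal acid lipase), *Ctsk* (cathepsin K), *Dcstamp*, *Slc37a2* and *Lhfpl2* were the other members that rose, by 1.98, 1.33, 1.69, 1.24, 1.87 and 1.90 on the log2 scale. *Trem2*, the lipid receptor of these macrophages, was 12.8, 10.9 and 14.8 normalized CPM under an ND and 14.1, 47.1 and 57.6 under a 60% HFD, with 60% HFD replicate 1 within the ND range (log2 fold change 1.34, adjusted p = 0.192). The count of members that passed was 9 without ND replicate 3 or 60% HFD replicate 1, 1 without ND replicate 1 and 2 without any one of the other 3 mice, and 8 with the hepatocyte level as a covariate. In a fit of all 36 mice, 4 passed.

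Of 23 general macrophage markers, 0 were higher and 1 was lower, *Mertk*, a receptor for the uptake of dying cells, at 85.6, 60.1 and 49.9 normalized CPM under an ND and 36.0, 37.3 and 29.6 under a 60% HFD (log2 fold change -0.88, adjusted p = 0.0410). *Adgre1* (F4/80) was 58.3, 52.1 and 66.5 normalized CPM under an ND and 111, 147 and 88.5 under a 60% HFD (log2 fold change 0.93, adjusted p = 0.0834). *Cd68* was 33.3, 28.4 and 26.8 normalized CPM under an ND and 48.3, 80.7 and 78.2 under a 60% HFD (log2 fold change 1.17, adjusted p = 0.0791). Neither passed, although all 60% HFD mice were above all ND mice. Of the resident macrophage genes, *Cd163* was 352, 227 and 229 normalized CPM under an ND and 152, 179 and 49.6 under a 60% HFD. *Lyve1* was 127, 129.5 and 160.4 normalized CPM under an ND and 106, 76.1 and 13.8 under a 60% HFD. Neither passed (adjusted p = 0.0850 and 0.109). 60% HFD replicate 3 was the lowest for both.

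**Figure D3:**
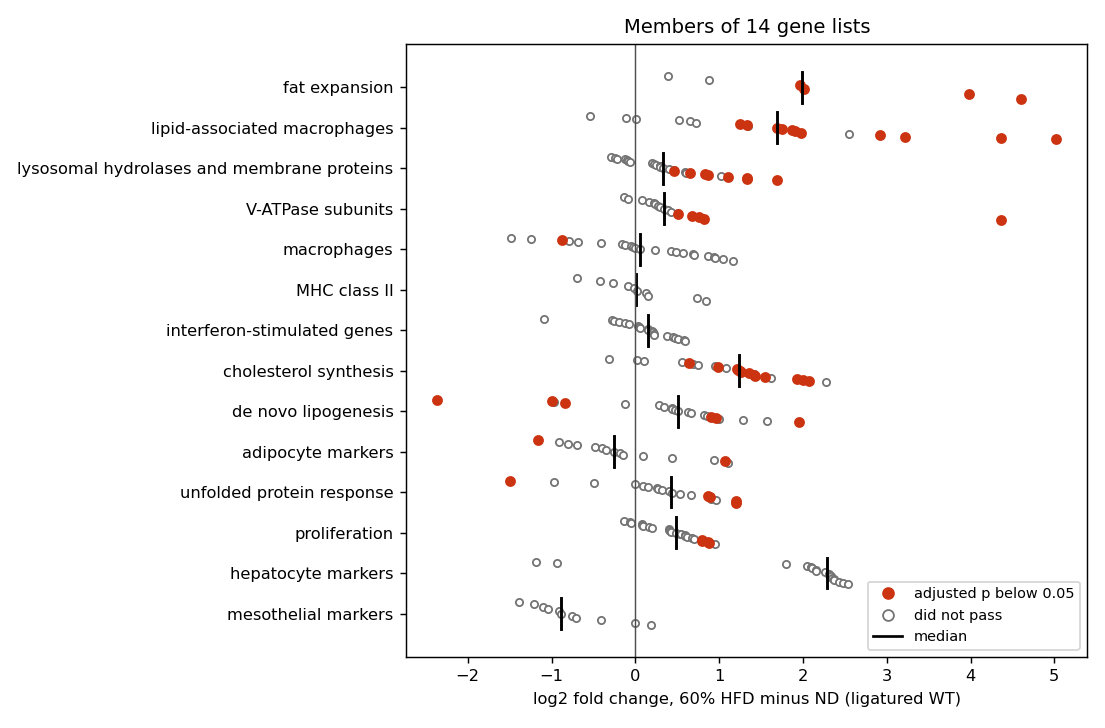
Log2 fold change between 60% HFD and ND in ligatured WT mice (x axis) of the members of 14 gene lists; filled points passed an adjusted p of 0.05, open points did not, and a black bar marks the median of each list. The fat expansion, lipid-associated macrophage and cholesterol synthesis lists lie to the right (medians 1.99, 1.69 and 1.24), and the hepatocyte markers lie at a median of 2.29 with no member passing.

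Lysosomal genes and V-ATPase subunits rose in part. Of 27 lysosomal hydrolases and membrane proteins tested, 8 were higher and 0 lower (median log2 fold change 0.33). Of 17 V-ATPase subunits, 5 were higher and 0 lower (median 0.34). *Ctss*, a cathepsin of antigen-presenting cells, was 63.2, 71.1 and 84.5 normalized CPM under an ND and 138, 210.1 and 216 under a 60% HFD (log2 fold change 1.34, SE 0.35, adjusted p = 0.0355). *Gusb*, the lysosomal beta-glucuronidase, was 31.2, 38.2 and 51.1 normalized CPM under an ND and 80.6, 86.5 and 90.9 under a 60% HFD (log2 fold change 1.11, SE 0.17, adjusted p = 0.00357). *Ctsd* and *Ctsb*, the most widely expressed cathepsins, rose by 0.83 and 0.87, *Ctsl* by 0.65 and the membrane protein gene *Lamp1* by 0.47 on the log2 scale, less than *Lipa* and *Ctsk*. *Lipa* was 76.9, 68.9 and 70.6 normalized CPM under an ND and 133, 185 and 247 under a 60% HFD. *Ctsk* was 14.3, 11.3 and 23.1 normalized CPM under an ND and 24.7, 80.4 and 71.0 under a 60% HFD. Apart from *Atp6v0d2*, the V-ATPase subunits that rose were *Atp6v1a*, *Atp6v0a1*, *Atp6v1b2* and *Atp6v1e1*, by 0.82, 0.76, 0.68 and 0.51 on the log2 scale. *Atp6v1a*, of the catalytic part of the pump, was 97.3, 96.1 and 108 normalized CPM under an ND and 149, 187 and 202 under a 60% HFD. Their values within each diet differed little between mice. In a fit of all 36 mice, 0 lysosomal members and 2 subunits passed. Without 60% HFD replicate 2 or ND replicate 1, 1 lysosomal member passed, without ND replicate 2, 2 did, and without 60% HFD replicate 3, 4 did. Of the subunits, 1 passed without ND replicate 1 and 2 without ND replicate 2 or 60% HFD replicate 2 or 3.

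The palindrome TCACGTGA is the core of the CLEAR element bound by TFEB, a regulator of lysosomal genes. It was searched in the 250 bases before the transcription start in the RefSeq promoters of GRCm38.p6, where 258 of 32851 promoters (0.785%) hold it on either strand (it reads the same on both). It was found for 4 of the 21 lysosomal genes with a promoter in the table (*Ctsa*, *Ctsd*, *Mcoln1* and *Gla*; 4 of 23 promoters, 17.4%) and 1 of 12 V-ATPase genes (*Atp6v1a*; 1 of 16 promoters, 6.25%). Among these, *Ctsd* and *Atp6v1a* rose, while *Ctsa*, *Gla* and *Mcoln1* did not pass (log2 fold change 0.29, 1.02 and -0.06). The 100 bases around the motif are shown for the 2 genes that rose, with the motif in capitals, 5′ to 3′ on the strand of the gene (*Ctsd*, chr7:142387867-142387966, minus strand; *Atp6v1a*, chr16:44139332-44139431, minus strand). These matches are a description of the letters and not sites of binding.
Ctsd: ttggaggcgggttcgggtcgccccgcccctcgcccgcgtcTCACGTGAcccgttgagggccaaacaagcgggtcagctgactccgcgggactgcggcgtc
Atp6v1a: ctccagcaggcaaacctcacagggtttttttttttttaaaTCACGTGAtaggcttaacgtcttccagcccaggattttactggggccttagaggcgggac

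Genes at several steps of cholesterol synthesis rose. Of 24 tested, 13 were higher and 0 lower, with a median log2 fold change of 1.24. *Hmgcs1*, the HMG-CoA synthase at the start, was 148, 127 and 116 normalized CPM under an ND and 409, 277 and 386 under a 60% HFD (log2 fold change 1.43, SE 0.33, adjusted p = 0.0208). *Mvd*, *Idi1* and *Fdps* of the mevalonate and isoprenoid steps rose by 1.26, 1.54 and 2.00 on the log2 scale. *Sqle*, *Lss* and *Cyp51*, which make and modify the sterol ring, rose by 1.41, 0.98 and 0.64, and *Msmo1*, *Nsdhl*, *Sc5d* and *Dhcr7* of the later steps rose by 1.36, 1.22, 1.23 and 1.25 on the log2 scale. *Insig1*, the sterol-dependent anchor of the SREBPs and itself their target, was 67.4, 54.2 and 69.3 normalized CPM under an ND and 238, 242 and 254 under a 60% HFD (log2 fold change 1.93, SE 0.24, adjusted p = 0.000818). *Fdps*, which makes farnesyl diphosphate, was 5.72, 5.88 and 13.8 normalized CPM under an ND and 32.7, 25.1 and 49.3 under a 60% HFD. *Idi1*, the isomerase before it, was 15.0, 16.6 and 23.3 normalized CPM under an ND and 58.7, 42.2 and 64.5 under a 60% HFD. *Stard4*, a carrier of cholesterol within the cell, was 13.2, 13.8 and 7.82 normalized CPM under an ND and 45.9, 41.8 and 68.1 under a 60% HFD (log2 fold change 2.08, adjusted p = 0.0322). In all 4 genes, the ND and 60% HFD mice were well apart, most tightly for *Insig1*.

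*Srebf2*, which encodes SREBP-2, was 48.4, 49.5 and 51.7 normalized CPM under an ND and 50.1, 49.0 and 52.0 under a 60% HFD (log2 fold change 0.01, adjusted p = 0.962). It did not pass and was at nearly the same level in all 6 mice. Hepatocytes express this pathway, and their markers moved with the diet as given above. With the hepatocyte level of each mouse as a covariate, 14 members passed. The log2 fold change was then 1.85 for *Insig1*, 1.84 for *Fdps*, 1.43 for *Idi1* and 1.64 for *Stard4*. Without ND replicate 1, 3 members passed, and 7 to 11 passed without any one of the other 5 mice. Of 16 genes of the list with a promoter in the RefSeq table, 1 (*Hmgcs1*) held TCACCCCAC, the core of a sterol regulatory element, in the 250 bases before its start, against 163 of 32851 promoters (0.496%; both strands searched). It is shown in capitals in the 100 bases around it (chr13:119690174-119690273, plus strand).
Hmgcs1: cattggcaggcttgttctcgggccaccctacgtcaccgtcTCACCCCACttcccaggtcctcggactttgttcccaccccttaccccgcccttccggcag

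Genes of fatty acid synthesis changed in both directions, with 3 of 21 higher and 3 lower. *Scd2*, a stearoyl-CoA desaturase, was 40.2, 42.0 and 136 normalized CPM under an ND and 262, 212 and 248 under a 60% HFD (log2 fold change 1.95, SE 0.42, adjusted p = 0.0151). *G6pdx* and *Pgd*, which supply NADPH through the pentose phosphate pathway, rose by 0.90 and 0.97. *Acacb*, *Aacs* (acetoacetyl-CoA synthetase; 174, 144 and 155 against 99.9, 75.3 and 64.6) and *Tkt* (transketolase) fell, *Aacs* and *Tkt* by 0.99 and 0.83 on the log2 scale. *Fasn*, the fatty acid synthase, was 413, 460.0 and 2797 normalized CPM under an ND and 1831, 1493 and 1553 under a 60% HFD (log2 fold change 1.00, adjusted p = 0.307). Its level in ND replicate 3 was above all 60% HFD mice and far above the other 2 ND mice, so the groups overlap.

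Among genes of lipolysis and lipid droplets, 2 of 18 were higher and 2 lower, beside 3.87% and 3.42% of all genes tested. One of the lower genes, *Abhd5*, the activator of the adipose triglyceride lipase, was 217, 194 and 172 normalized CPM under an ND and 128, 117 and 92.3 under a 60% HFD (log2 fold change -0.79, adjusted p = 0.0357). *Mgll*, the monoglyceride lipase, was 331, 322 and 587 normalized CPM under an ND and 952, 831 and 692 under a 60% HFD (log2 fold change 1.04, adjusted p = 0.0441), and the lipid droplet gene *Hilpda* was 4.62, 4.51 and 3.95 normalized CPM under an ND and 9.98, 9.63 and 8.71 under a 60% HFD (log2 fold change 0.96, adjusted p = 0.0240). Of 18 genes of fatty acid uptake and triglyceride synthesis, *Fabp5* and *Gpd1*, which makes glycerol 3-phosphate (309, 212 and 350.4 against 574, 596 and 621), were higher, and *Gpam*, which adds the first acyl chain to it (624, 454 and 397 against 308, 173 and 222), was lower (adjusted p = 0.0455 and 0.0486).

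Few genes of mitochondrial and insulin pathways passed (over all genes tested, 3.87% were higher and 3.42% lower). Of 21 genes of fatty acid oxidation, *Hadhb*, a subunit of the trifunctional protein, was higher (log2 fold change 0.72) and the thioesterase *Acot2* was lower (-0.73). Of the 21, however, 19 had a positive log2 fold change (median 0.53), against 8396 of all 16653 genes tested. By the DEG criteria, 7 were higher and 1 lower. Of 18 genes of branched-chain amino acid breakdown, *Bcat2*, the first transaminase, was lower, at 196, 148 and 151 normalized CPM under an ND and 78.3, 67.6 and 52.1 under a 60% HFD (log2 fold change -1.32, adjusted p = 0.00804). Of 29 subunits of oxidative phosphorylation, *Sdhc* was higher (0.48). *Gys1*, the glycogen synthase of muscle and fat, was the only one of 21 genes of insulin signalling and glucose uptake to pass, at 122, 93.0 and 83.6 normalized CPM under an ND and 58.4, 36.3 and 31.9 under a 60% HFD (log2 fold change -1.25, adjusted p = 0.0456). Of 11 thermogenic genes, *Otop1*, a proton channel of brown fat, was listed at 0, 0 and 0.464 under an ND and 1.36, 5.94 and 3.47 under a 60% HFD (log2 fold change 1.88, adjusted p = 0.00442). *Ucp1*, the uncoupling protein, was at 0, 0.253 and 0 and 1.23, 2.09 and 0.631, too low in the 18 ligatured mice to be tested.

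Of the 4 genes that were measured by qPCR in eWAT of these groups in the study, *Spp1* passed here. The study's qPCR, in more mice per group, found all 4 significantly higher in ligatured WT mice on a 60% HFD than on an ND. *Tnf* was 0, 0.203 and 0.155 normalized CPM under an ND and 0.194, 0.963 and 1.26 under a 60% HFD (log2 fold change 0.64, adjusted p = 0.165). *Ccl2* (MCP-1), a chemokine that recruits monocytes, was 0.138, 0.963 and 4.57 normalized CPM under an ND and 7.19, 6.90 and 4.67 under a 60% HFD (log2 fold change 1.63, adjusted p = 0.0611). Neither passed, although *Ccl2* did in 2 of 18 alternative settings. *Il1b* was at most 0.947 normalized CPM in these mice and was not tested. Of 12 cytokine genes and receptors tested, *Il1rn*, the IL-1 receptor antagonist, was higher, at 0.552, 0.557 and 0.774 normalized CPM under an ND and 3.69, 8.67 and 31.4 under a 60% HFD (log2 fold change 2.81, adjusted p = 0.0363). Of 25 chemokine genes and receptors, *Ccl22* was higher, at 0.0690, 0.203 and 1.08 normalized CPM under an ND and 2.98, 2.01 and 1.70 under a 60% HFD (log2 fold change 1.20, adjusted p = 0.0224). *Ccl19* was 0.690, 0.507 and 2.79 normalized CPM under an ND and 1.30, 0.963 and 1.07 under a 60% HFD in these WT mice, overlapping groups with a log2 fold change of -0.01 (adjusted p = 0.989).

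Innate and adaptive immune lists held few changes (over all genes tested, 3.87% were higher and 3.42% lower). None of 13 toll-like receptor genes, 10 MHC class II genes, 21 interferon-stimulated genes or 9 genes of neutrophils and mast cells passed. The endotoxin receptor *Tlr4* was 50.1, 52.8 and 63.1 normalized CPM under an ND and 64.5, 65.1 and 44.0 under a 60% HFD, and its partner *Cd14* 33.9, 28.8 and 31.3 and 20.4, 21.8 and 12.2. Of the antigen presentation genes, *Cd74* was 445, 535 and 722 normalized CPM under an ND and 696, 533 and 381 under a 60% HFD, and *H2-Aa* 221, 319 and 333 and 399, 378 and 215. Of the interferon-stimulated genes, *Oasl2* was 73.2, 61.8 and 87.0 normalized CPM under an ND and 31.7, 32.9 and 37.2 under a 60% HFD. For *Tlr4*, *Cd74* and *H2-Aa*, the groups overlap, and for *Cd14* and *Oasl2*, all 60% HFD mice were below all ND mice. Of 16 complement genes, *C2* was lower, at 449, 372 and 393 normalized CPM under an ND and 162, 163 and 164 under a 60% HFD (log2 fold change -1.30, adjusted p = 0.0142), as was *Cfd*. *Orm1* was the only one of 10 acute phase genes to pass, at 62.6, 79.1 and 113 normalized CPM under an ND and 210.2, 155 and 183 under a 60% HFD (log2 fold change 1.13, adjusted p = 0.00641). Of the 10, however, 9 had a positive log2 fold change (median 1.34), and 5 were higher by the DEG criteria.

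*Fscn1*, an actin-bundling protein of mature dendritic cells, was the only one of 11 dendritic cell genes to pass (log2 fold change 0.88). *Il7r*, the IL-7 receptor and the only one of 12 genes of T and NK cells to pass, was 3.10, 2.99 and 2.32 normalized CPM under an ND and 6.54, 17.6 and 22.3 under a 60% HFD (log2 fold change 1.97, adjusted p = 0.0411). Of the 12, only 4 had a positive log2 fold change (median -0.097). Of 14 B cell genes, *Ighm*, the immunoglobulin mu chain, was higher at 37.9, 91.2 and 186 normalized CPM under an ND and 356, 221 and 384 under a 60% HFD (log2 fold change 1.84, adjusted p = 0.0241). It ran against most of its list, of which only 3 of 14 had a positive log2 fold change (median -0.50). The genes *Cd3d*, *Cd3e* and *Cd3g* of the T cell receptor complex were at most 1.01 normalized CPM in each of the 6 mice.

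In the matrix, 3 of 14 metalloproteinases and inhibitors were higher (*Mmp12*, *Mmp15* and *Adamts5*) and *Mmp9*, a gelatinase, was lower, at 26.0, 13.2 and 25.5 normalized CPM under an ND and 7.71, 3.29 and 2.21 under a 60% HFD (log2 fold change -2.13, SE 0.60, adjusted p = 0.0450). *Adamts5*, an aggrecanase, was 121, 158 and 264 normalized CPM under an ND and 473, 388 and 358 under a 60% HFD (log2 fold change 1.23, adjusted p = 0.0167). *Mmp15*, a membrane-bound protease, was 3.86, 3.09 and 3.87 normalized CPM under an ND and 12.8, 11.0 and 15.2 under a 60% HFD (log2 fold change 1.59, adjusted p = 0.0404). Of 17 collagens, *Col12a1* was higher, at 19.6, 28.5 and 26.2 normalized CPM under an ND and 59.9, 71.5 and 51.6 under a 60% HFD (log2 fold change 1.27, adjusted p = 0.0262). Of 11 laminins and basement membrane genes, *Lamb3* was higher (log2 fold change 1.75) and *Lamb1* lower (-0.76). *Postn* (periostin), a matrix protein induced by TGF-beta, was 91.5, 119 and 107 normalized CPM under an ND and 247, 301 and 212 under a 60% HFD (log2 fold change 1.24, adjusted p = 0.0402). *Tgfbr3*, the co-receptor betaglycan, was 383, 323 and 300.1 normalized CPM under an ND and 198, 206 and 157 under a 60% HFD (log2 fold change -0.84, adjusted p = 0.0154). These were 1 higher and 1 lower of 23 genes of TGF-beta and fibrosis, beside 3.87% and 3.42% of all genes tested. *Lum* (lumican), the only one of 16 genes of progenitors and fibroblasts to pass, was 70.7, 71.8 and 112 normalized CPM under an ND and 166, 281 and 207 under a 60% HFD (log2 fold change 1.35, adjusted p = 0.0127). *Esam*, an adhesion molecule of endothelial junctions and the only one of 17 endothelial genes to pass, was 38.1, 35.5 and 24.9 normalized CPM under an ND and 12.4, 13.2 and 16.7 under a 60% HFD (log2 fold change -1.15, adjusted p = 0.00967).

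Of 20 genes of the unfolded protein response, 4 were higher and 1 lower, beside 3.87% and 3.42% of all genes tested. *Hspa5*, the chaperone BiP, was 335, 274 and 428 normalized CPM under an ND and 699, 599.5 and 596 under a 60% HFD (log2 fold change 0.89, adjusted p = 0.0142). *Edem1*, which directs misfolded glycoproteins to degradation, was 77.7, 87.3 and 151 normalized CPM under an ND and 266, 226 and 209 under a 60% HFD (log2 fold change 1.20, SE 0.21, adjusted p = 0.00635). Both were higher in every 60% HFD mouse, as were *Sdf2l1* and *Manf*, which rose by 1.20 and 0.86. *Asns*, the asparagine synthetase, was 99.6, 81.0 and 59.7 normalized CPM under an ND and 42.0, 23.7 and 19.9 under a 60% HFD (log2 fold change -1.50, adjusted p = 0.0304). *Ddit3* (CHOP) was 5.93, 5.67 and 7.51 normalized CPM under an ND and 7.19, 8.43 and 11.6 under a 60% HFD and did not pass (adjusted p = 0.167).

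Of 25 proliferation genes, *Ccnb1*, *Ube2c*, *Aurka* and *Mcm5* were higher, all at low levels (log2 fold changes 0.88, 0.86, 0.80 and 0.79). *Ccnb1*, for cyclin B1, was 0.483, 0.811 and 0.851 normalized CPM under an ND and 1.62, 2.01 and 2.97 under a 60% HFD. *Mki67* was 6.90, 10.1 and 13.1 normalized CPM under an ND and 14.3, 10.3 and 16.4 under a 60% HFD, with overlapping groups. *Per1* was the only one of 19 clock genes to pass, at 142, 112 and 75.6 normalized CPM under an ND and 38.5, 59.1 and 66.2 under a 60% HFD (log2 fold change -0.99, adjusted p = 0.0283). The hour of collection is not given in the labels. Of 11 hypoxia targets, *Hilpda* passed, and of 11 targets of NRF2, *G6pdx*. Over all genes tested, 3.87% were higher and 3.42% lower. Of the other marker lists, *Cela1*, an elastase also made outside the pancreas, rose, at 4.00, 7.95 and 9.60 normalized CPM under an ND and 28.8, 32.2 and 32.3 under a 60% HFD (log2 fold change 2.04, adjusted p = 0.00116), while the other 8 pancreas markers were at most 5.73 normalized CPM. *Actn3*, for a muscle actinin, fell, at 5.93, 8.56 and 14.5 normalized CPM under an ND and 2.40, 1.53 and 1.89 under a 60% HFD (log2 fold change -1.79, adjusted p = 0.0376), while the myosin genes *Myh1*, *Myh2* and *Myh4* were at most 0.694. Of 11 smooth muscle and mural markers, 0 passed. *Acta2* was 72.7, 67.0 and 79.2 normalized CPM under an ND and 149, 118 and 93.4 under a 60% HFD, and *Rgs5* 40.8, 35.7 and 46.4 and 52.9, 36.8 and 46.5.

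To ask whether the higher fat content mattered, the 60% HFD was compared with the 40% HFD in ligatured WT mice. No gene differed at an adjusted p below 0.05 (limma; smallest adjusted p = 0.0566, and 0 genes with the edgeR quasi-likelihood test), 1506 genes did at an unadjusted p below 0.05, and 727 (4.37%) met the DEG criteria. The gene nearest to passing was *Fam13a*, at 335, 471 and 642 normalized CPM under a 40% HFD, above all 60% HFD mice and overlapping the ND mice (60% minus 40% HFD, log2 -2.27, adjusted p = 0.0566). *Lep* was 1689.8, 1083 and 2207, *Sfrp5* 232, 142 and 260.1 and *Mest* 1081, 301 and 318 under a 40% HFD, in each gene overlapping the 60% HFD mice and above all ND mice. The difference between the 2 HFDs was -0.07, 0.10 and 0.40 on the log2 scale (adjusted p = 0.973, 0.960 and 0.822).

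*Atp6v0d2* was 6.22, 5.88 and 2.65 and *Gpnmb* 35.6, 26.8 and 18.0 normalized CPM in the 40% HFD mice, below all 60% HFD mice (60% minus 40% HFD, log2 3.21 and 2.75, adjusted p = 0.467 and 0.484). *Spp1* was 1.61, 1.96 and 4.17, where 40% HFD replicate 3 was above 60% HFD replicate 1 (2.08, adjusted p = 0.538). *Itgax* was 16.3, 10.3 and 6.26, above all ND mice and overlapping the 60% HFD mice (1.26, adjusted p = 0.573). *Insig1* was 138, 62.9 and 125 (1.24, adjusted p = 0.317) and *Cfd* 1648, 3593 and 2714 (-2.24, adjusted p = 0.467), with 40% HFD replicate 2 within the ND range for *Insig1* and all 40% HFD mice between the ND and the 60% HFD mice for *Cfd*. None of these differences between the 2 HFDs passed the test, which does not show that the diets act alike.

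**Figure D4:**
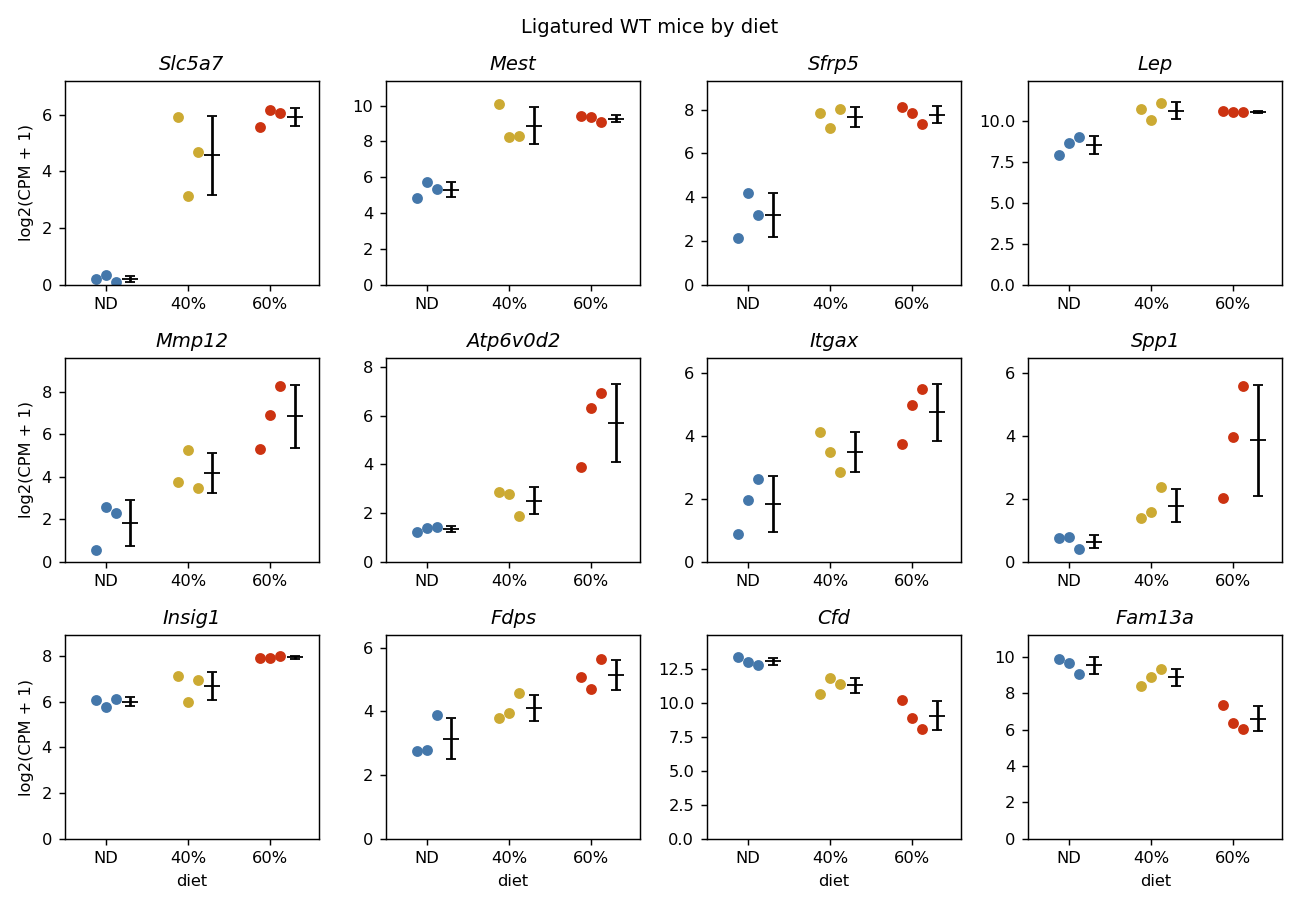
Log2(normalized CPM + 1) (y axis, from 0) of 12 genes in ligatured WT mice by diet (x axis; ND, 40% HFD, 60% HFD); each point is 1 mouse, and the black marks beside the points give the mean ± SD of 3 mice. *Mest*, *Sfrp5* and *Lep* of the 40% HFD mice overlap those of the 60% HFD mice, while *Atp6v0d2* of the 40% HFD mice (2.65 to 6.22 normalized CPM) lies below all 60% HFD mice (13.9 to 120.3).

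The same diets were compared in ligatured CCL19-KI mice, which share no mouse with the WT comparison. There, the 60% HFD changed 3711 of 16653 genes (22.3%), 2131 higher and 1580 lower. Of the 645 genes that rose in ligatured WT mice, 628 (97.4%) had a positive log2 fold change in CCL19-KI mice, against 50.2% of all genes tested, and 493 passed in the same direction (76.4%, against 12.8% of all genes called higher there). Of the 569 genes that fell, 531 (93.3%) had a negative one, against 49.7%, and 275 passed (48.3%, against 9.49% called lower). No gene passed in the opposite direction. The 5 largest rises were in the liver genes *Bhmt*, *Apob*, *Mat1a* and *Pzp* and in *Slc5a7*, and the largest falls in *Akr1b7*, *Crisp1*, *Actg2*, *Spink8* and *Pcp4*, several of them genes of the epididymis and of smooth muscle. *Slc5a7* was 0.212, 0.430 and 0.551 under an ND and 131, 110.3 and 137 under a 60% HFD there (log2 fold change 6.51). *Mest* was 73.7, 129 and 306 and 1403, 798 and 1829 (3.14), and *Cfd* 4954, 2903 and 6043 and 475, 254 and 1176 (-3.08). *Atp6v0d2* was 2.38, 1.84 and 2.63 and 66.3, 114 and 11.2 (3.80, adjusted p = 0.0109). *Spp1* was 1.96, 2.82 and 2.63 and 9.81, 35.2 and 3.95 and did not pass (1.85, adjusted p = 0.151).

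By list, 5 of 6 fat expansion genes, 11 of 19 genes of lipid-associated macrophages, 15 of 24 genes of cholesterol synthesis, 19 of 27 lysosomal genes and 12 of 17 V-ATPase subunits were higher under a 60% HFD in the CCL19-KI mice, with 0 lower in each. In WT mice, 19 of 21 fatty acid oxidation genes and 14 of 17 collagens had a positive log2 fold change, with 1 each called higher. In the CCL19-KI mice, 17 and 10 of them were called higher under a 60% HFD. None of them passed the direct test of a difference between WT and CCL19-KI mice. Hepatocyte markers were at a mean log2 level of 7.90, 1.09 and 1.27 in the ND group of CCL19-KI mice and 9.46, 9.12 and 6.28 in the 60% HFD group, with 10 of 18 passing. Epididymis markers were at 1.91, 2.14 and 0.988 and 0.198, 0.199 and 0.130. Their part in these counts was not tested. *Pparg* was 135, 52.2 and 99.8 and 120.1, 87.7 and 135 in CCL19-KI mice and *Acacb* 141, 112 and 209.7 and 154, 78.6 and 112, overlapping groups for both (log2 fold change 0.33 and -0.43, adjusted p = 0.452 and 0.457), although both fell in WT mice. For neither gene did the test of a difference between genotypes pass (-1.49 and -1.94, adjusted p = 0.272 and 0.269).

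Tested directly, the effect of the 60% HFD differed between ligatured WT and CCL19-KI mice for 39 genes (0.234% of those tested), 35 with a higher and 4 with a lower effect in WT mice. The count was 1 with the edgeR quasi-likelihood test, 1 with a pseudocount of 0.1, 0 with a filter at a mean of 5 and 0 in a fit of all 36 mice. The 35 were led by genes known from neurons (*Dpp6*, *Rims1*, *Rbfox3*, *Ncam1* and *Dlgap1*) that were low in WT mice on both diets and fell in CCL19-KI mice. *Maoa*, the monoamine oxidase A, rose in WT mice by 0.55 (adjusted p = 0.0291) and by more in CCL19-KI mice (1.56), a difference of -1.01. None of the 20 genes of the largest changes was among the 39, and of the gene lists only the cholesterol synthesis list held one, *Pmvk*, a kinase of the mevalonate pathway, at 22.7, 24.8 and 18.2 and 19.8, 14.3 and 18.4 in WT and 9.37, 8.96 and 11.4 and 23.0, 18.8 and 25.2 in CCL19-KI mice.

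In WT mice without ligature, the 60% HFD changed 608 of 17852 genes (3.41%), 535 higher and 73 lower, in a fit of all 36 mice. Of the 645 genes that rose in ligatured WT mice, 452 (70.1%) had a positive log2 fold change there, against 42.5% of all genes tested, and 26 passed (4.03%, against 3.00% of all genes called higher there). Of the 569 genes that fell, 485 (85.2%) had a negative one, against 57.5%, and 10 passed (1.76%, against 0.409% called lower). No gene passed in the opposite direction. The 5 largest rises there were in the liver genes *Apob*, *Mup7*, *Serpina1c*, *Alb* and *Mat1a*. The library labelled ND replicate 1 without ligature was high in the genes that rose. *Slc5a7* was 189.5, 8.63 and 5.45 in the 3 ND mice and 172, 49.4 and 54.0 in the 3 60% HFD mice, and *Lep* 4217, 809 and 1513 and 3204, 1689 and 1826. *Mmp12* was 207, 4.68 and 6.60 and 108, 43.0 and 55.3, and *Mest* 1315, 389 and 613 and 1254, 792 and 956. In each of these genes, ND replicate 1 was the highest of the 6 mice, and *Cfd* was lowest in it, at 333, 2804 and 4220.1 against 361, 751 and 485. Without this library, 595 genes passed, of which 406 were among the 608, and without 60% HFD replicate 3, 3 did.

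None of the lists of fat expansion, lipid-associated macrophages, lysosomal genes or V-ATPase subunits had a member that passed in WT mice without ligature, and 2 of 24 cholesterol genes were higher. These values come from the fit of all 36 mice, unlike the counts given above for ligatured WT mice. They were not counted again without ND replicate 1 of the unligatured mice. In the fit of all 36 mice, 2, 4, 0 and 2 members of these lists and 10 cholesterol genes passed in ligatured WT mice, among 459 genes in all. The hepatocyte markers were at a mean log2 level of 1.10, 1.23 and 1.06 in the ND mice and 8.22, 9.72 and 10.2 in the 60% HFD mice, and 17 of 18 passed. No gene passed the test of a difference in the diet effect between ligatured and unligatured WT mice at an adjusted p below 0.05 (limma, interaction in the fit of all 36 mice; smallest adjusted p = 0.166, 0 genes with the edgeR quasi-likelihood test, 1728 genes at an unadjusted p below 0.05, and 1437 genes, 8.05%, by the DEG criteria). This does not show that the effects were alike. The unligatured ND mice in this test include replicate 1, described above.

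**Figure D5:**
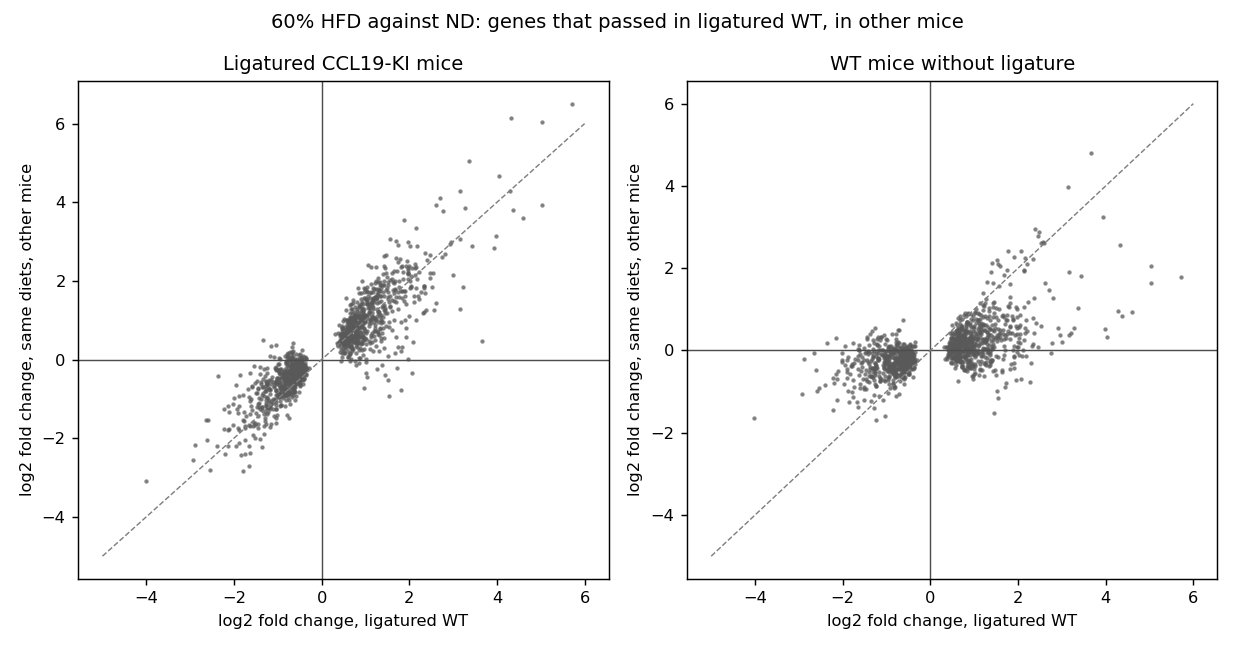
Log2 fold change between 60% HFD and ND of the 1214 genes that passed in ligatured WT mice (x axis) against that of the same genes in ligatured CCL19-KI mice (left) and in WT mice without ligature (right) (y axes); each point is a gene, and the dashed line marks equal values. Of the genes that rose in ligatured WT mice, 97.4% lie above 0 on the left and 70.1% on the right.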

How the data were processed

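Gene expression in eWAT was measured by RNA-seq of rRNA-depleted, directional libraries, 1 per mouse, in 12 groups of 3 mice (36 in all). Per the labels and the study's methods, the authors trimmed reads with Trimmomatic 0.38, aligned and counted them with Bowtie2 and RSEM 1.3.0, and normalized the counts with edgeR. The submitters' processing notes name the build GRCm39 and the methods mm10, so coordinates come from the annotation (GRCm38) and not from the deposited table. The deposited table holds normalized CPM of 24750 genes, a signal scaled by library, with no column of comparisons. Each value came out as a whole number of reads (tolerance 0.01), so the reads of each gene could be recovered. Of the genes, 64 had values equal to those of another gene in all libraries.

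Main tests used limma 3.58.1 (R 4.3.3), with an intensity trend, on log2(normalized CPM + 1) of genes that reached 1 in 3 or more libraries, in a fit of the 18 ligatured mice (all 36 for comparisons with unligatured mice), adjusted by the Benjamini-Hochberg method. edgeR 4.0.16 was run on the recovered reads as an alternative. The p-values rest on the spread between mice within groups of 3, pooled over all groups of the fit and moderated across genes. The scripts were tested on simulated data. A score is the mean log2 level of a marker list. The named genes were the 10 largest rises and falls that passed and did not overlap, up to 4 members of each list with the largest changes that passed (where none did, the 2 most abundant), and genes of the study's hypothesis. Genes outside this rule (such as *Trem2*, *Adgre1*, *Cd68*, *Cd163*, *Lyve1*, *Srebf2*, *Fasn*, *Mki67*, *Ddit3* and *Ucp1*) were chosen after their values were seen. Some genes that the rule names are not reported here. The comparison and the gene lists were chosen with earlier results of these data known. Figures were drawn with matplotlib 3.10.9 and tables handled with pandas 2.3.3 (Python 3.11.15).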

Additional observations from a re-analysis of the deposited data

Results flagged for a closer look

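The effect of the 60% HFD differed between ligatured WT and ligatured CCL19-KI mice for 39 genes (limma, interaction, adjusted p below 0.05), for 1 gene with the edgeR quasi-likelihood test or a pseudocount of 0.1, and for 0 with a filter at a mean of 5 or in a fit of all 36 mice. The differences (WT minus CCL19-KI, log2) were largest for *Dpp6* (4.50), *Rims1* (3.97), *Rbfox3* (3.61), *Ncam1* (3.53) and *Dlgap1* (3.42), genes known from neurons. *Dpp6* was 33.5, 24.1 and 14.8 normalized CPM in the CCL19-KI mice on an ND and 0.392, 0 and 0.149 in those on a 60% HFD. It was 0, 0 and 0.155 and 0, 0.401 and 0.126 in WT mice. *Rims1* was 22.7, 14.5 and 17.6 and 0.785, 0 and 0.0745 in CCL19-KI mice and at most 0.126 in WT mice. All 3 ND mice of the CCL19-KI line were high. In unligatured WT mice on an ND, *Dpp6* was 0.761, 32.1 and 1.35, and the epididymis markers were at a mean log2 level of 0.423, 9.11 and 1.86. In the 3 CCL19-KI mice on an ND, the epididymis markers were at a mean log2 level of 1.91, 2.14 and 0.988; the part of that tissue in these differences was not tested.

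The 4 genes with a lower effect in WT mice were *Pmvk* (-1.40), *Maoa* (-1.01), *Wipi1* (-0.93) and *Lmna* (-0.75). *Maoa* was 38.5, 36.4 and 42.9 and 56.2, 61.8 and 56.1 normalized CPM in WT mice and 37.4, 31.4 and 30.3 and 93.5, 96.8 and 108 in CCL19-KI mice, higher under a 60% HFD in every mouse of both genotypes.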

How the results depend on the processing

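Of the 83 genes followed singly in the settings that passed, 17 kept an adjusted p below 0.05 in each setting, 11 lost it only when a mouse was left out, and 0 changed direction. In the other direction, 9 followed genes that had not passed did so in at least 1 setting. These were *Slc34a1* (4 of 19 settings), *Ccl2* (2 of 18), *Gpnmb*, *Kap*, *Cd14*, *Upk3b*, *Muc16*, *Oasl2* and *Cyp2e1*. Other genes named in the text were not followed singly. In ligatured WT mice, genes with an adjusted p below 0.05 (1214) numbered 4810 with sample quality weights, 459 when all 36 mice were fitted, and 137 to 1770 with 1 mouse left out. Genes meeting the DEG criteria (2433) numbered 1002 at a ratio of 2, 1505 with a pseudocount of 5 and 1766 to 2797 with 1 mouse left out. For the 60% against the 40% HFD, where no gene passed, 1 gene passed with a pseudocount of 5, with quality weights (1) and with the hepatocyte covariate (1), and 0 to 5 with 1 mouse left out; the DEG count (727) was 280 at a ratio of 2, 404 with a pseudocount of 5, 425 with a filter at a mean of 5 and 442 to 1022 with 1 mouse left out. For the difference between genotypes (39), the count was 1 with a pseudocount of 0.1, 1 with edgeR, 0 with a filter at a mean of 5, 0 in a fit of all 36 mice, 22 with quantile normalization, 2742 with quality weights and 7 to 215 with 1 mouse left out (7 without CCL19-KI ND replicate 2 and 215 without its replicate 3); its DEG count (1178) was 583 at a ratio of 2, 666 with a filter at a mean of 5, 3572 with quality weights and 757 to 1526. For the difference between ligatured and unligatured WT mice (0), the count was 4685 with quality weights, whose estimation did not converge fully, and 0 to 23 with 1 mouse left out; its DEG count (1437) was 801 at a ratio of 2, 853 with a pseudocount of 5, 5165 with quality weights and 853 to 2103. In unligatured WT mice, where leaving out mice was added after seeing the data, 608 became 3 to 718 and the DEG count of 2147 became 1436 to 2819. The cause of these shifts was not tested.

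With the replicate number as a block, 1134 genes passed in ligatured WT mice, 1021 of them shared, 0 for the 60% against the 40% HFD, 29 for the difference between genotypes and 0 for the difference by ligature. Samples with the same number did not deviate together (r = -0.061, -0.282 and -0.431). Whether mice with the same number share more than the number was not tested.

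The genes that changed direction had not passed. *Ccl19* was at 0.11 with a pseudocount of 0.1, 0.29 with quality weights and -0.26 to 0.40 with 1 mouse left out. *Tlr4* was at -0.045 with quantile normalization and -0.047 to 0.23 with 1 mouse left out. With quality weights, *Cd74*, *Prm2* and *Prm1* were at 0.10, 0.74 and 0.68. With the hepatocyte covariate, *Alb*, *Prm2* and *Prm1* were at -0.10, 0.14 and 0.15. With 1 mouse left out, *Cd74* was at -0.30 to 0.13, *H2-Aa* at -0.032 to 0.44, *Tpsb2* at -0.029 to 0.96, *Crisp1* at -0.46 to 2.09 and *Prm2* at -1.27 to 0.90.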
